A study of Mus musculus with 3 samples.

Results

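The clustered histone genes analysed here are the 67 protein-coding genes of the mouse whose symbol starts with Hist1h, Hist2h, Hist3h or Hist4h, of 55536 annotated genes in the deposited tables. They comprise 6 genes of linker histone H1, 18 of H2A, 18 of H2B, 12 of H3 and 13 of H4. A further 3 pseudogenes carry such symbols and were left out. The members were chosen by symbol and not by their measured levels. The RNA came from the cytosolic fraction of cultured macrophages grown from the bone marrow of C57BL/6J mice, after 90 minutes with lipid A, the toll-like receptor 4 agonist part of lipopolysaccharide, at 100 ng/ml. There was 1 such group of 3 libraries, numbered as biological replicates, with no unstimulated cells and no other fraction among the samples, so no value below is an effect of lipid A. Sex and age of the mice were not recorded in the labels. Ribosomal RNA was depleted and no poly(A) selection is named, which matters for mRNAs without a poly(A) tail.

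Clustered histone genes supply the histones that package newly copied DNA, and in dividing cells their mRNAs rise at the start of S phase and are destroyed at its end. Most are short genes without introns, and the mRNA ends not in a poly(A) tail but just after a conserved stem-loop that the stem-loop binding protein holds. H2A, H2B, H3 and H4 form the core of the nucleosome and H1 sits on the DNA between cores. Bone marrow-derived macrophages proliferate under colony-stimulating factor 1, and toll-like receptor agonists are known to halt their division.

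The members sat in a few clusters on the GRCm38 (mm10) assembly. Chromosome 13 held 54 of them, chromosome 3 held 10, chromosome 11 held Hist3h2a and Hist3h2ba, and chromosome 6 held Hist4h4 alone. The chromosome 13 genes carried 76.0% ± 1.7 of the summed histone TPM and the chromosome 3 genes 22.4% ± 1.6 (SD, n = 3). TPM, transcripts scaled to a fixed sum per library, is a level per length of transcript. Of the chromosome 13 genes, 29 lay between positions 23531050 and 23764406 and summed to 203, 126 and 150 TPM in libraries 1, 2 and 3. Another 18 lay between 21715763 and 21837530 and summed to 90.4, 59.5 and 75.9 TPM. A group of 5 between 22035164 and 22043676 summed to 15.6, 9.33 and 11.1 TPM. The remaining pair at the far end of the cluster, Hist1h2ba and Hist1h2aa, had no counts.

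The stem-loop of the mRNA end is shown first because it is the feature that sets these transcripts apart from other mRNAs. Of 58797 protein-coding transcripts in the GENCODE annotation used, 57 (0.0969%) held the motif in the searched form. It was found after the stop codon in 46 of the 67 members, between 21 and 58 bases downstream of it. Only annotated transcripts were searched. In 15 members the model ends at the stop codon or within 2 bases of it, so the motif could not be found there. The 4 loop bases are in capitals in the sequences below, and the lower-case flanks are the 2 arms of the stem, 6 bases each.
Hist1h1c stem-loop, chr13:23739512-23739527, plus strand: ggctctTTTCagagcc
Hist1h1t stem-loop, chr13:23696525-23696540, plus strand: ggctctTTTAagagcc
Hist1h4h stem-loop, chr13:23531458-23531473, plus strand: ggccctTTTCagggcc
Hist1h4j stem-loop, chr13:21735437-21735452, plus strand: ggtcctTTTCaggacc
The form printed for Hist1h1c was carried by 26 genes of the H1, H2A, H2B and H3 classes. Its stem arms were shared by all 34 genes outside the H4 class in which the motif was found, with small changes of loop among them. None of the 12 H4 genes with a stem-loop had those arms. The form printed for Hist1h4h was the most frequent in that class, in 7 genes.

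Upstream sequence is shown for 5 genes that the levels below turn on. RefSeq windows on GRCm38.p6, from 250 bases before to 50 after each gene start, matched 62 of the 67 members. Hist1h2bc, Hist1h3a, Hist1h3f, Hist2h2be and Hist2h4 were not matched. The last 150 bases before the start are printed, 5′ to 3′ on the gene's own strand. Capitals mark matches on either strand to the octamer ATTTGCAT, bound by POU-domain factors such as Oct-1, to CCAAT, the site of the NF-Y complex, and to TATAAA, the core of the TATA box; none of these motifs overlaps another in the windows shown.
Hist1h2ac, the weaker member of the most unequal head-to-head pair, chr13:23683960-23684109, minus strand: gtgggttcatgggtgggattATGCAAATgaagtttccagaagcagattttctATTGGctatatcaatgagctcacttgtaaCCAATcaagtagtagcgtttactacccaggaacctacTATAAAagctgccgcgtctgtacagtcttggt
Hist1h2bg, with the octamer read in the H2B direction, chr13:23571250-23571399, plus strand: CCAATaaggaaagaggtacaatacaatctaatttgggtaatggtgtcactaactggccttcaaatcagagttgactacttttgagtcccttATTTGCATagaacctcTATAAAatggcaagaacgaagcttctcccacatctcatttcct
Hist2h2aa2, the member with the highest level, chr3:96240375-96240524, minus strand: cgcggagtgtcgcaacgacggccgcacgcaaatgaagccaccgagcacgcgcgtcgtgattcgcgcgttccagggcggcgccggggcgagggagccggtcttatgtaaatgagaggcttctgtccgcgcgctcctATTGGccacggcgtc
Hist1h1c, the leading H1 gene, chr13:23738657-23738806, plus strand: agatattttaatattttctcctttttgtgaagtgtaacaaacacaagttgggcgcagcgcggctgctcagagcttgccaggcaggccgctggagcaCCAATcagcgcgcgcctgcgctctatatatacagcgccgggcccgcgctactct
Hist1h4h, the leading H4 gene, with none of the motifs in these bases, chr13:23530894-23531043, plus strand: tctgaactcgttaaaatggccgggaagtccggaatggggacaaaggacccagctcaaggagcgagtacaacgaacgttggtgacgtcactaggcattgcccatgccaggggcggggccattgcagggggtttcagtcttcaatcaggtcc

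The classes differed in these letters. The octamer was in 7 of 18 H2A and 6 of 16 H2B windows, and in none of the 6 H1, 10 H3 and 12 H4 windows, against 1.74% of all 32851 promoter windows of the same length. In every H2A window that held it the octamer stood as ATGCAAAT on the gene's strand, and in every H2B window as ATTTGCAT. These windows are not all separate observations. In 3 head-to-head H2A and H2B pairs both genes' windows hold the same site, read from opposite strands. Such a site counts in both classes, and its opposite orientations follow from the layout of the pair. CCAAT was in every matched H1, H2A, H2B and H3 window but in only 3 of 12 H4 windows, against 37.4% of all windows. TATAAA was in 35 of the 62 histone windows, or 56.5%, against 13.6% of all windows. Windows of head-to-head pairs overlap, so some CCAAT and TATAAA sites are likewise counted for both genes of a pair. These are matches of letters only, and neither binding nor activity was measured.

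**Figure D1:**
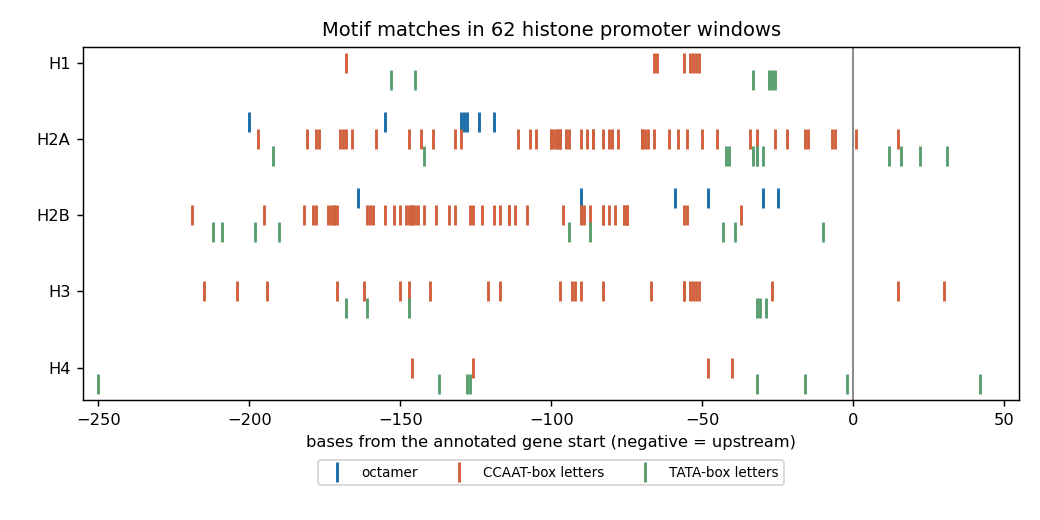
Positions of motif matches in the 62 matched histone promoter windows, in bases from the annotated gene start (x axis), by histone class (y axis); each tick is 1 match on either strand. Octamer ticks appear in the H2A and H2B rows only, CCAAT ticks are dense in H2A, H2B and H3, and 3 of the 12 H4 windows hold one.

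Summed over the 67 genes, histone RNA made up 0.150%, 0.120% and 0.138% of protein-coding TPM in libraries 1, 2 and 3, which is 401, 263 and 309 TPM, carried by 12371, 13480 and 18684 expected counts. Total depth ranged from 33821479 to 59390843 expected counts per library. The members were detected more widely than most genes, with counts above 0 for 95.5%, 94.0% and 94.0% of members against 61.0%, 62.6% and 64.2% of 22028 protein-coding genes. The median member had 3.92, 2.17 and 2.83 TPM, against 0.13, 0.11 and 0.12 TPM for the median protein-coding gene, which counts genes that are silent in these cells. In bulk RNA, fewer cells making histone mRNA and less of it per cell cannot be told apart.

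Levels were set against a reference level, the median TPM of the 8752 protein-coding genes that averaged 1 TPM or more: 7.38, 6.07 and 6.205 TPM in the 3 libraries. A gene was called above or below it where the log2 difference was at least 1 with an adjusted p under 0.05 (limma's moderated one-sample test over 13344 genes averaging 0.1 TPM or more, Benjamini-Hochberg). Of the 64 members tested, 5 were called above the reference, or 7.81%, against 20.5% of all genes tested. Another 33 members, or 51.6%, were below it, against 50.6% of all genes, and 26 were called neither way. Of those 26, 7 had a log2 difference over 0. The 5 were Hist2h2aa2, Hist1h1c, Hist1h2bc, Hist1h4h and Hist1h4m. With the reference taken over genes of at least 5 TPM, which changed every gene by the same -1.03 log2 units, 3 members were above, against 10.6% of all genes, and 54 below, against 66.1%. Hist1h4h and Hist1h4m were then no longer called, and those 2 also lost their call in the second quantification and with counts divided by annotated length.

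**Figure D2:**
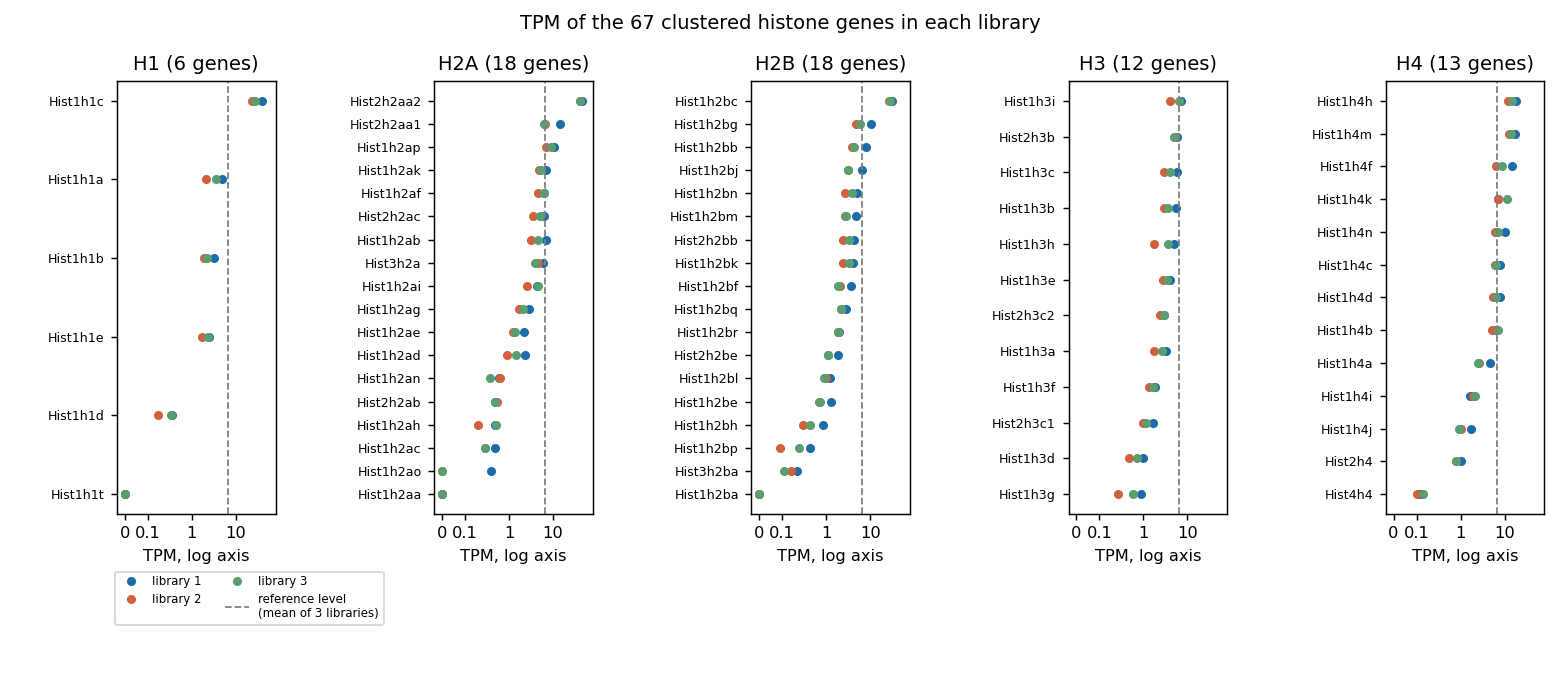
TPM of each member (log x axis, values of 0 drawn at the left end) in each of 3 libraries, by class and in order of the mean; the dashed line is the reference level. Hist1h1c, Hist2h2aa2 and Hist1h2bc lie right of the line and right of their class in every library, while H3 genes stay near or left of it.

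Linker histone RNA came mostly from 1 gene. Hist1h1c, which encodes H1.2, had 40.01, 23.80 and 27.27 TPM in libraries 1, 2 and 3, and ranked 1210th among protein-coding genes by mean level. It was 2.16 log2 units above the reference (SD 0.24, n = 3; adjusted p = 0.000202, limma with Benjamini-Hochberg) and made up 78.3% ± 1.9 of H1 TPM. No other H1 gene was above the reference. Hist1h1a had 4.88, 2.14 and 3.63 TPM and Hist1h1b, encoding H1.5, had 3.21, 1.93 and 2.19 TPM. Hist1h1e, encoding H1.4, had 2.52, 1.68 and 2.34 TPM and Hist1h1d, encoding H1.3, had 0.36, 0.17 and 0.33 TPM. The ranges of Hist1h1c and of each of these did not overlap. Hist1h1t, the testis form, had 0 counts in all 3 libraries. Hist1h1b, Hist1h1e and Hist1h1d were below the reference. The Hist1h1d model is the longest of all members, 7425 bases, and it drew 154, 119 and 276 expected counts, more than Hist1h1a in libraries 1, 2 and 3 (147, 107 and 221) despite the lower TPM.

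H2A RNA was led by a pair of genes with identical coding sequence on chromosome 3. Hist2h2aa2 had 46.63, 40.22 and 41.14 TPM, the highest mean of all members, and ranked 848th among protein-coding genes. It was 2.69 log2 units above the reference (SD 0.04, n = 3; adjusted p = 3.4e-05, limma with Benjamini-Hochberg), and every library of it was above every library of Hist1h1c, the next member. Its twin Hist2h2aa1 had 14.33, 6.52 and 6.13 TPM and was called neither way. Together they gave 53.3% ± 3.3 of H2A TPM. How reads were divided between the twins is uncertain. They differ only outside the coding sequence, and 100% of the 50-base windows of Hist2h2aa2 also occur in Hist2h2aa1. The deposited credibility bounds were 40.5 to 50.1, 36.8 to 42.7 and 37.8 to 43.5 TPM for Hist2h2aa2. For Hist2h2aa1 they were 10.9 to 17.8, 4.72 to 8.23 and 4.45 to 7.99 TPM. The SD of 0.04 between libraries leaves out how reads were split between the twins. Antisense models overlap both genes, at a mean of 0.67 TPM for Gm20632 over Hist2h2aa2 and 0.17 TPM for Gm20633 over Hist2h2aa1, and the sources used here do not say whether counting used strand. On the same strand, Gm20634 covers 529 of the 586 bases of Hist2h2aa1, at a mean of 2.53 TPM.

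All other H2A genes were below Hist2h2aa2 in every library. Hist1h2ap, on chromosome 13, had 10.42, 6.82 and 8.83 TPM, and Hist1h2ak had 6.89, 4.76 and 5.39 TPM. Hist1h2af had 6.23, 4.49 and 6.31 TPM, and Hist2h2ac on chromosome 3 had 6.38, 3.49 and 4.94 TPM. None of these 4 was called either way, and the ranges of Hist1h2ak, Hist1h2af and Hist2h2ac overlap. Of the remaining 12, Hist1h2ab, Hist3h2a and Hist1h2ai had means from 3.88 to 4.88 TPM and were called neither way. Hist1h2ag, Hist1h2ae, Hist1h2ad, Hist1h2an, Hist2h2ab, Hist1h2ah, Hist1h2ac and Hist1h2ao, at means from 0.13 to 2.24 TPM, were the 8 H2A genes below the reference. Hist1h2aa, a testis-type H2A gene, had 0 counts in every library. The 18 genes encode 9 distinct proteins, and a single protein sequence encoded by 9 chromosome 13 genes took 24.2% ± 2.7 of H2A TPM.

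H2B RNA was led by Hist1h2bc, which supplied 40.8% of the class by mean TPM. It had 31.54, 26.24 and 27.79 TPM and was 2.11 log2 units above the reference (SD 0.03, n = 3; adjusted p = 4.2e-05, limma with Benjamini-Hochberg). It ranked 1290th among protein-coding genes, and its range overlapped that of Hist1h1c. Hist1h2bg followed with 10.58, 4.71 and 5.84 TPM, and Hist1h2bb had 7.83, 3.93 and 4.36 TPM. Hist1h2bj had 6.56, 3.11 and 3.12 TPM. Each of these was high in library 1 and called neither way. Hist1h2bn had 4.89, 2.62 and 3.94 TPM and Hist1h2bm had 4.82, 2.67 and 2.83 TPM, also called neither way.

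The other H2B genes lay lower. Hist2h2bb, at a mean of 3.33 TPM, was called neither way. Hist1h2bk, Hist1h2bf, Hist1h2bq, Hist1h2br, Hist2h2be, Hist1h2bl, Hist1h2be, Hist1h2bh, Hist1h2bp and Hist3h2ba, at means from 0.163 to 3.20 TPM, were the 10 below the reference. Hist1h2ba, the testis form of H2B, had 0 counts in all 3 libraries. Hist1h2bc, Hist1h2be and Hist1h2bg encode the same protein, which took 52.6% ± 3.2 of H2B TPM, and 6 genes encoding another took 22.6% ± 1.0. These 2 proteins differ at 1 residue, and the class holds 11 distinct proteins in all.

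No H3 gene was above the reference, and the class had no single leading gene. Hist1h3i had 7.20, 4.0 and 6.36 TPM and Hist2h3b had 5.84, 5.13 and 5.06 TPM. Hist1h3c had 5.93, 3.00 and 4.03 TPM and Hist1h3b had 5.42, 2.95 and 3.54 TPM. The highest of them supplied 16.4% of the class, and the ranges overlap. Hist1h3h had 4.83, 1.78 and 3.55 TPM, and was below the reference, a call lost without library 2 (log2 difference -0.68), with a pseudocount of 1 (-0.84) and with FPKM (-0.83). Hist1h3e had 3.92, 2.73 and 3.35 TPM and was called neither way. Hist2h3c2, Hist1h3a, Hist1h3f, Hist2h3c1, Hist1h3d and Hist1h3g, at means from 0.58 to 2.78 TPM, were below it. The 12 genes encode 2 proteins that differ at 1 residue. The H3.2 type, from 8 genes, took 65.9% ± 4.3 of H3 TPM and the H3.1 type, from Hist1h3a, Hist1h3g, Hist1h3h and Hist1h3i, 34.1% ± 4.3.

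All 13 H4 genes encode the same protein, and their RNA was spread over more genes at a higher level. The median H4 gene had 7.16, 5.39 and 6.39 TPM, against 3.92, 2.17 and 2.83 TPM for the median of all members. Hist1h4h had 17.81, 11.90 and 14.43 TPM and was 1.14 log2 units above the reference (SD 0.16, n = 3; adjusted p = 0.000538, limma with Benjamini-Hochberg). Hist1h4m had 17.08, 12.49 and 13.61 TPM and was 1.12 units above it (SD 0.09, n = 3; adjusted p = 0.000237, same test). The ranges of these 2 genes overlap. Hist1h4f had 14.44, 6.21 and 8.58 TPM and Hist1h4k had 7.16, 7.12 and 11.06 TPM, the only one of the leading 6 that was highest in library 3. Hist1h4n, whose coding sequence is identical to that of Hist1h4m, had 10.40, 6.00 and 7.07 TPM, and Hist1h4c had 7.75, 5.90 and 6.30 TPM. None of these 4 was called either way. Hist1h4d and Hist1h4b, at means of 6.52 and 6.25 TPM, were not called either, and Hist1h4a, Hist1h4i, Hist1h4j, Hist2h4 and Hist4h4, at means from 0.12 to 3.24 TPM, were below the reference.

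Among the classes, H2A took the largest share of histone TPM, 29.5%, 31.2% and 29.95% in libraries 1, 2 and 3. H4 took 24.5%, 25.4% and 26.2%, H2B 22.1%, 21.9% and 20.7%, H1 12.7%, 11.3% and 11.6%, and H3 11.2%, 10.2% and 11.6%. H2A was highest and H4 second in every library, and the ranges of H1 and H3 overlapped. The order rests on the length model. As plain expected counts H1 came first with 28.7% on average, then H2B with 25.2%, H2A with 21.4% and H4 with 15.2%, and per annotated length H2B, at 23.1%, passed H4, at 21.7%. Hist2h2aa2, Hist1h1c and Hist1h2bc together made up 31.7% ± 2.5 of histone TPM (SD, n = 3) and 47.2% ± 1.4 of histone counts.

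**Figure D3:**
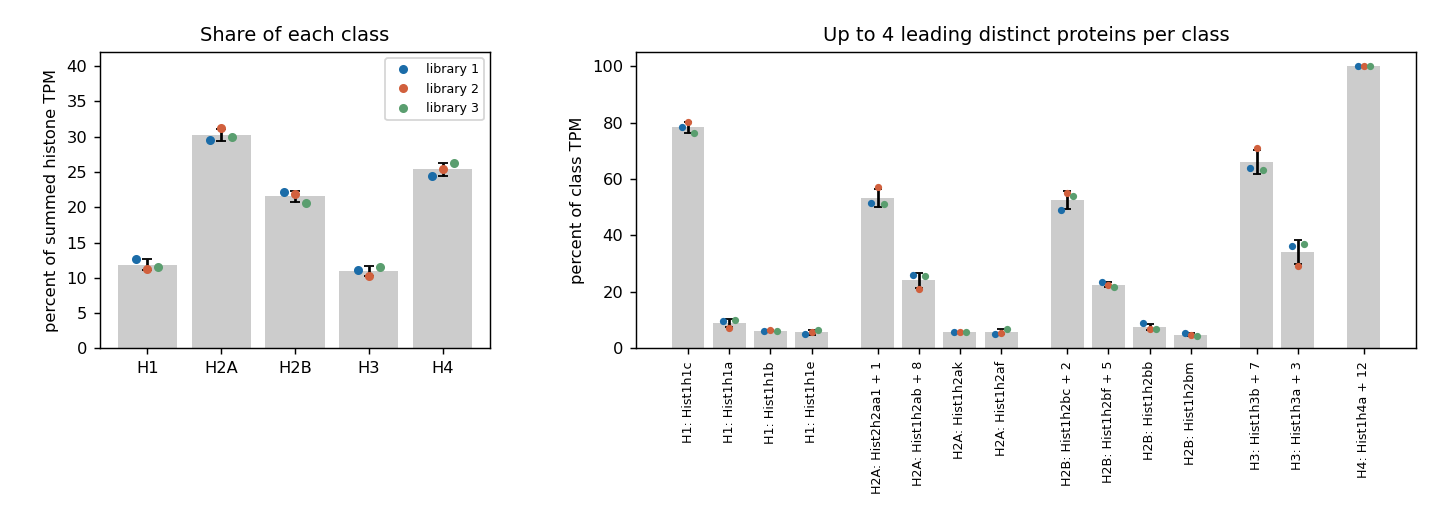
Left, percent of summed histone TPM in each class; right, percent of class TPM for up to 4 distinct proteins per class, named by their first gene and the number of further genes encoding the same protein. Bars are means, error bars SD over 3 libraries and points the libraries; H2A leads at 30.2% ± 0.9 and Hist1h1c supplies 78.3% of H1.

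H2A and H2B genes often stand head to head, sharing one upstream region. There were 12 such pairs with starts 175 to 305 bases apart. Within each of the 11 pairs with counts the same gene had the higher TPM in all 3 libraries. TPM divides by model length, and by expected counts this order did not always hold. Hist2h2be, with a model of 2620 bases, had 257, 253 and 301 counts, more than Hist2h2ac, at 520 bases, with 108, 102 and 176. In library 3 Hist1h2bf had 52.4 counts, against 60.5 for Hist1h2ad. Hist1h2bp had more counts than Hist1h2an in libraries 1 and 3. The deposited TPM bounds of the 2 genes of a pair were apart in all 3 libraries in 4 pairs only. Those were the pairs of Hist1h2bc, Hist1h2bg, Hist1h2br and Hist2h2be. They overlapped in every library for Hist1h2bp and Hist1h2an, which had under 11 expected counts each, and for Hist1h2bq and Hist1h2ao. In the Hist1h2bc and Hist1h2ac pair, 250 bases apart, Hist1h2bc had 31.54, 26.24 and 27.79 TPM, against 0.49, 0.29 and 0.28 TPM for Hist1h2ac. That is a log2 ratio of 6.01 (SD 0.23, n = 3) of H2B over H2A on TPM plus 0.1, the largest of the pairs. Its size rests on unlike models, which the SD leaves out. The Hist1h2bc model is 1156 bases without the stem-loop motif. The Hist1h2ac model is 2482 bases, 2010 of them past its stem-loop. Expected counts were 1728, 2341 and 3017 for Hist1h2bc, against 64.9, 62.4 and 74.0 for Hist1h2ac. By TPM, the H2B gene was higher in all 3 libraries in 6 of the 11 detected pairs, and the H2A gene in 5. In the opposite direction, Hist1h2br had 1.92, 1.89 and 1.86 TPM, against 10.42, 6.82 and 8.83 TPM for Hist1h2ap. The log2 ratio there was -2.12 (SD 0.30, n = 3), an SD that leaves out how reads were split between copies. Both genes have a twin of identical coding sequence, and the bounds of Hist1h2br were 0.34 to 5.05, 0.07 to 3.97 and 0.16 to 4.16 TPM, against 8.02 to 11.9, 5.36 to 7.76 and 7.28 to 9.74 TPM for Hist1h2ap.

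By TPM, the H2B gene was the higher in 3 of the 4 detected pairs with an octamer, and in 6 of all 11 detected pairs. The motif stood in a window of 5 pairs, including Hist1h2bk and Hist1h2ah, Hist1h2bg and Hist1h2ae, and Hist1h2ba and Hist1h2aa, in which both genes' windows held it. The H2B gene was higher in the first 2 of these, and the last had 0 counts for both genes. Of the other 2, Hist1h2bc was above Hist1h2ac and Hist2h2be was below Hist2h2ac in TPM in every library. By expected counts Hist2h2be was above Hist2h2ac in every library. The windows of Hist1h2bc and Hist2h2be were not matched, so in those pairs only the H2A window was searched. A link between the octamer and the higher gene was not tested.

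**Figure D4:**
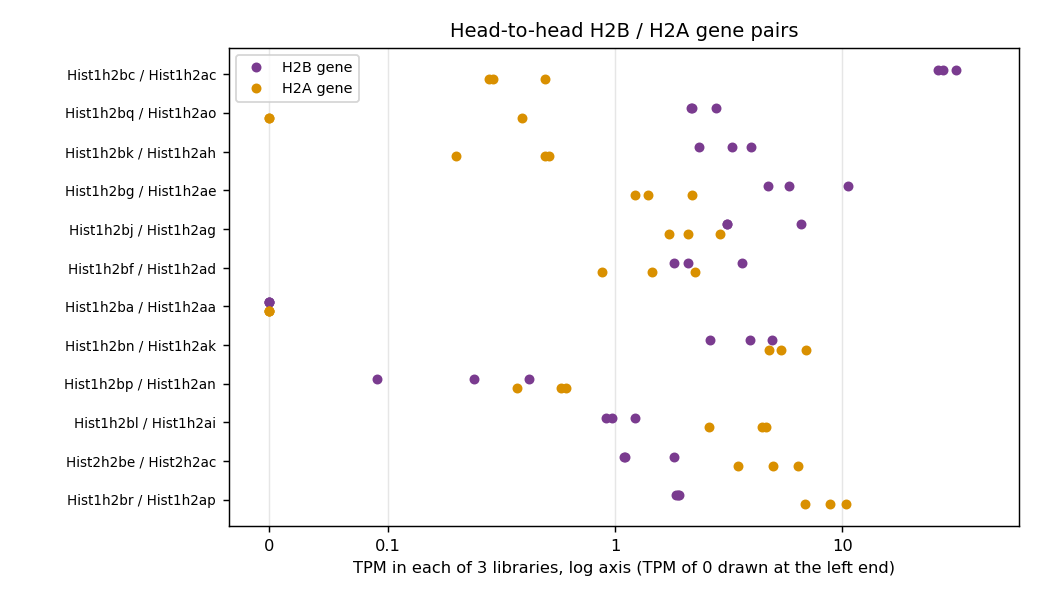
TPM of the H2B gene and the H2A gene of 12 head-to-head pairs in each of 3 libraries (log x axis, 0 drawn at the left end), ordered by their log2 ratio. Points of Hist1h2bc lie far right of those of Hist1h2ac, and points of Hist1h2br left of those of Hist1h2ap.

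The libraries differed in histone RNA in a common direction. Library 1 had the highest TPM of 54 of the 64 detected members and library 2 the lowest of 49. Protein-coding genes as a whole took 266987, 219490 and 223540 TPM in libraries 1, 2 and 3. On TMM-scaled CPM (counts scaled to library size), library 1 was highest for 56.1% and library 2 lowest for 70.2% of 57 members, against 39.3% and 25.5% of 11202 protein-coding genes. The SD of log2 CPM over the 3 libraries had a median of 0.26 over members and 0.12 over all genes.

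This spread passed no per-gene test. None of the 57 members with at least 10 counts in every library varied beyond the trend of genes of like abundance (edgeR goodness of fit, adjusted p under 0.05, Benjamini-Hochberg over 12339 genes), against 2.31% of all genes. At an unadjusted p under 0.05 there was 1 member, Hist2h2aa1, or 1.75%, against 5.86% of all genes. Its adjusted p was 0.63 (edgeR, Benjamini-Hochberg). With DESeq2 size factors the count was also 0.

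Genes of S phase and proliferation moved with the libraries in the same way. Of 29 listed, 23 were highest in library 1 and 24 lowest in library 2 on TMM-scaled CPM. Among 11202 protein-coding genes the shares were 39.3% and 25.5%. Ccna2, which encodes cyclin A2, had 2.12, 0.64 and 0.90 TPM, Ccnb1, which encodes cyclin B1, had 2.04, 0.50 and 0.73 TPM, and Top2a, encoding a topoisomerase of dividing cells, had 6.17, 2.77 and 3.93 TPM. These 3 of the 29 were called variable between libraries by the edgeR test, against 2.31% of all genes. The part of the proliferation genes in the spread of the histone genes was not tested.

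Most genes of that list were below the reference level. Of 29 genes, 2 were above the reference, 20 below and 7 neither, beside 20.5% above and 50.6% below among all genes. The 2 were Pcna, the sliding clamp of DNA polymerase, with 69.90, 51.78 and 55.98 TPM, and Mki67, the Ki-67 proliferation antigen, with 29.29, 20.88 and 17.49 TPM. Cdt1, which loads the replicative helicase, had 8.29, 5.98 and 6.72 TPM and was called neither way.

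Of 18 genes that transcribe and process histone mRNA, 1 was above the reference, 6 below, 9 neither and 2 too low to test, beside 20.5% above and 50.6% below among all genes. Slbp, the stem-loop binding protein, had 5.74, 4.62 and 4.46 TPM and was called neither way, and Npat, the coactivator that cyclin E-Cdk2 phosphorylates at histone loci, had 1.34, 0.86 and 0.69 TPM and was below. The highest were Snrpb, a core protein of small nuclear ribonucleoproteins, with 31.05, 22.06 and 21.86 TPM, the scaffold protein gene Sympk with 13.26, 11.20 and 11.94 TPM, and Snrpd3 with 10.36, 11.88 and 12.02 TPM. Of 10 genes of histone mRNA decay, 1 was above, 2 below and 7 neither. Tut7, a uridyltransferase that adds U residues to the mRNA end, had 26.39, 20.13 and 21.72 TPM and was the one above. Mif4gd, a partner of the stem-loop binding protein, had 13.30, 8.94 and 8.45 TPM, and Dcp2, the decapping enzyme, had 12.07, 7.33 and 8.04 TPM.

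Histone variants outside the clusters, whose mRNAs are in most cases polyadenylated and made outside S phase too, were higher than any member at their top. H3f3b had 309, 218 and 249 TPM and H3f3a had 248, 173 and 163 TPM, and both encode H3.3. The 12 clustered H3 genes summed to 44.7, 26.8 and 35.7 TPM, below either gene in every library. H2afz, encoding H2A.Z, had 47.89, 33.66 and 33.47 TPM, and the 18 clustered H2A genes summed to 118, 81.9 and 92.4 TPM. Of the 11 variant genes listed, 5 were above the reference, 2 below, 3 neither and 1 too low to test. Among all genes 20.5% were above and 50.6% below.

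Of 18 histone chaperone genes, 6 were above the reference, 5 below and 7 neither, beside 20.5% above and 50.6% below among all genes. The highest were Nap1l1, a carrier of H2A and H2B, with 27.20, 22.02 and 22.64 TPM, and the H3.3 deposition partners Daxx, with 24.27, 13.94 and 13.74 TPM, and Atrx, with 16.08, 14.74 and 16.33 TPM. Chaf1a, Chaf1b, Asf1a, Asf1b and Hira were the 5 below. With the reference taken over genes of at least 5 TPM, Snrpb, Tut7, Mki67, Nap1l1, Daxx and Atrx were no longer called above it, and Daxx and Atrx lost the call in the second quantification too.

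TPM divides by the length of the annotated model, which varied widely among members. Members were grouped by their protein-coding models, taking the longest 3′ UTR and a stem-loop in any model. Of them, 15 end at the stop codon or within 2 bases of it, and 23 end within 100 bases past the stem-loop. Another 23 run over 100 bases past it and 6 have a 3′ UTR without the motif. Hist1h2bp was placed by the stem-loop of its 469-base model, since its longest model, of 621 bases, lacks the motif. The shortest of all members, Hist1h4k, is 312 bases. Its effective length, the number of positions at which a fragment can start, was only 88.6, 108 and 108 bases. Its 37.8, 72.4 and 137 expected counts became 7.16, 7.12 and 11.06 TPM, whereas 689, 811 and 880 counts became 6.06, 4.44 and 3.96 TPM in Hist3h2a, with a model of 2146 bases.

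Deposited alongside was a second quantification of the same libraries, and the values of the 2 methods were compared after centring each library on its median gene. The median gene had a log2 ratio of the second over the first of -1.02, -1.22 and -1.52 in libraries 1, 2 and 3 before centring. Of the 50 members that averaged 1 TPM or more by either method, 1 was called lower in the second (limma with Benjamini-Hochberg over 9491 genes, log2 ratio at least 1), against 1.94% of all genes, and 0 were called higher, against 2.72%. The count lower was 0 with a pseudocount of 1 in place of 0.1. Hist2h3c1 had 0.177, 0 and 1.2e-10 TPM in the second and 1.68, 0.97 and 1.12 TPM in the first, a centred log2 ratio of -1.98 on TPM plus 0.1 (adjusted p = 0.0058, limma with Benjamini-Hochberg). All 1825 bases of its model lie within the processed transcript Gm20634, which had 1.62, 1.05 and 0.89 TPM in the second and 2.97, 2.30 and 2.33 TPM in the first.

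Most models that end at the stop codon read higher in the second method. Their centred log2 ratio had a median of 0.51 over 10 genes, of which 9 were above 0. Hist1h2bq and Hist1h2br, grouped by long models with a 3′ UTR, drew most of their TPM from models of 381 bases that also end at the stop codon, and their ratios were -0.25 and -0.21. With those 2 counted by the model that held most of their TPM, a grouping added after the values were seen, 9 of 12 were above 0 and the median was 0.42. The median was -0.08 over 20 genes whose models end just past the stem-loop and -0.02 over 14 with longer models. These groups were formed from the annotation, with no test between them.

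**Figure D5:**
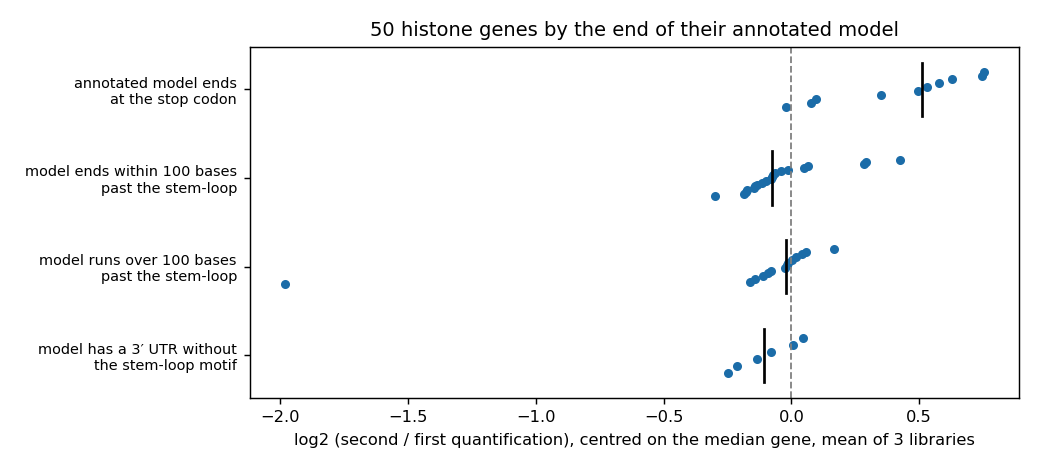
Centred log2 ratio of the second over the first quantification (x axis, mean of 3 libraries) for 50 members, by where the annotated model ends (y axis); points are genes and black bars medians. Stop-codon models have a median of 0.51, Hist1h2bq and Hist1h2br stand in the bottom row by their longest model, and the single point near -2 is Hist2h3c1.

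Reads of near-identical copies and overlapping models could not be placed with certainty. Over windows of 50 bases, the median member had 45.95% of its windows found in no other gene, with class medians of 98.9% for H1, 52.5% for H2B, 38.0% for H3, 60.5% for H4 and 27.0% for H2A, and 6 members had none. Windows were compared on both strands and were also shared with overlapping models of the same locus. On the opposite strand such models cover Hist2h2aa2 (Gm20632), Hist2h2aa1 (Gm20633), and Hist2h2bb and Hist2h3b (Gm20628) in full. Opposite-strand miRNA models of 129 to 144 bases also lie over part of most H2A genes. Of these, Gm44454 over Hist1h2ak averaged 9.47 TPM, Gm44313 over Hist3h2a 8.43 TPM and Gm44390 over Hist1h2ah 2.55 TPM, each above the member's own mean. Most of the others were at 0.14 TPM or 0. On the same strand Gm20634 covers Hist2h3c1 in full. Identical coding sequences were found for Hist1h2ao and Hist1h2ap, Hist1h2bq and Hist1h2br, Hist1h4m and Hist1h4n, Hist2h2aa1 and Hist2h2aa2, and Hist2h3c1 and Hist2h3c2. The deposited bounds for Hist1h2bq ran from 0.22 to 4.85, 0.18 to 4.13 and 0.09 to 4.15 TPM around values of 2.79, 2.17 and 2.19 TPM. Those for Hist1h1c, by contrast, ran from 37.8 to 40.6, 22.7 to 24.4 and 26.2 to 27.8 TPM.

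Of the members with more than 1 annotated transcript, Hist1h2be came almost whole from the Hist1h2be-202 model, at 98.4%, 98.5% and 95.8% of its TPM. Hist1h2bq was assigned 68.8%, 87.1% and 84.9% to Hist1h2bq-201. The transcripts of Hist1h2bp, at 5.94, 3.55 and 8.65 expected counts in all, changed places between libraries, from 100% of 1 model in library 1 to 0% in library 2.

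The cells carried the markers their label names. All 8 macrophage markers were above the reference, among them Lyz2, Mpeg1 and Cd68, and summed to 7826, 6089 and 5777 TPM. The 7 myeloid progenitor markers summed to 1.52, 1.27 and 1.59 TPM, and the 6 neutrophil markers to 41.4, 24.1 and 41.5 TPM, most of it S100a9 and S100a8, with Ly6g at 0. Lymphoid markers (6) summed to at most 0.16 TPM with Nkg7 at 0, and fibroblast markers (4) to at most 0.17 TPM. The neutrophil sum was lowest in library 2, as histone TPM was, and nearly the same in libraries 1 and 3. Within the list S100a9, at 23.24, 12.96 and 21.56 TPM, and S100a8, at 14.96, 7.77 and 13.78 TPM, had the library order of histone TPM. Ngp, at 2.40, 2.54 and 4.14 TPM, Camp, at 0.13, 0.25 and 0.41 TPM, and Ltf, at 0.62, 0.55 and 1.62 TPM, were highest in library 3. The part of these cells in the histone values was not tested. The 3 members without counts set a limit of 3 counts per library, which is 0.0891, 0.0628 and 0.0506 CPM.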

How the data were processed

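Members and gene lists were chosen with earlier results of these data known. The authors deposited, for each of 3 libraries, gene and transcript tables in a first quantification with expected counts, TPM, FPKM and credibility bounds, and a second with estimated counts and TPM, per the file headers; no source used here names the aligner or the strand setting. Assembly is mm10, per the labels. Depth was 33821479, 47843161 and 59390843 expected counts; 0.443%, 0.164% and 0.0982% fell on rows that match no annotated gene and were left out. Bounds and floors cover counting error only.

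Expected counts were rounded and scaled by TMM (edgeR 4.0.16); levels and differences between quantifications were tested on log2(TPM + 0.1) with limma 3.58.1 (R 4.3.3), with Benjamini-Hochberg adjustment. Fold changes on that scale understate changes of low genes. DESeq2 1.42.0 gave alternative size factors. Scripts were tested on simulated data. P-values measure the spread between libraries labelled as biological replicates. Stem-loops, coding sequences and model lengths came from GENCODE M21 transcripts and promoters from RefSeq. Proteins were compared as translations of the shortest annotated coding sequence; no protein table was used. Named were the 6 members of highest mean TPM per class, members called in a test, members at 0 counts, the 3 highest genes of each companion list, and Slbp, Npat and Mki67. Ccna2, Ccnb1 and Top2a were named after their values were seen, as the listed genes called variable, and so were the chaperone genes below the reference. A further marker list is not reported here.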

Additional observations from a re-analysis of the deposited data

How the results depend on the processing

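With the reference over genes of at least 5 TPM, 3 members were above and 54 below; 3 were above in the second quantification and 3 with counts divided by annotated length. The other settings, each left-out library included, gave 5 above, and every setting but the first named gave 29 to 40 below. The count lower in the second quantification was 0 with a pseudocount of 1, for which the cause was not tested. It was 40 of 50 without centring, against 86.7% of all genes, since the median gene itself is lower in the second, and 40 of 64 without the filter on low values, against 23.5%, where the cause was not tested. No setting called a member variable between libraries.

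Class shares without length division averaged 28.7% for H1, 21.4% for H2A, 25.2% for H2B, 9.50% for H3 and 15.2% for H4. With counts divided by annotated length they were 16.1% for H1, 28.2% for H2A, 23.1% for H2B and 21.7% for H4, and in the second quantification 11.0% for H1 and 31.3% for H2A.

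Log2 differences of genes near the reference changed sign. Against genes of at least 5 TPM, a reference that shifts every gene by -1.03, they were -0.68 for Hist2h2aa1, -0.64 for Hist1h2ap, -1.01 for Hist1h2bg, -0.54 for Hist1h4f, -0.69 for Hist1h4k, -0.81 for Hist1h4n, -1.01 for Hist1h4c, -0.15 for Sympk, -0.23 for Snrpd3, -0.42 for Mif4gd, -0.58 for Dcp2, -0.94 for Cdt1 and -0.20 for S100a8. For the settings that follow the cause was not tested. In the second quantification they were -0.25 for Hist1h2ap, 0.080 for Hist1h2ak, -0.46 for Hist1h2bg, -0.042 for Hist1h4f, -0.31 for Hist1h4n, -0.60 for Hist1h4c and -0.42 for Cdt1. With annotated length they were -0.075 for Hist1h2ap, -0.20 for Hist1h2bg, -0.27 for Hist1h4f, -0.87 for Hist1h4k, -0.39 for Hist1h4n and -0.027 for Hist1h4c. In FPKM they were 0.0052 for Hist1h2ak, 0.0039 for Hist1h2af and 0.021 for Hist1h3i. Leaving out each library in turn gave -0.25 to 0.23 for Hist1h2bg, -0.30 to 0.019 for Hist1h3i and -0.034 to 0.064 for Hist1h4c.

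No paired analysis was possible because the study has a single group. With 3 libraries and no unstimulated cells, neither an effect of lipid A nor a difference between cell fractions was measured, and the shortest models rest on under 100 expected counts in a library.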
